A study of Homo sapiens with 15 samples.

Results

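The genes described here are the brakes and the D cyclins of the G1 phase of the cell cycle, followed in a human fat stem cell line as it became fat cells and was then exposed to medium from breast carcinoma cells. They are the CDK inhibitors CDKN1A, CDKN1B, CDKN1C, CDKN2A and CDKN2B, the D cyclins CCND1, CCND2 and CCND3, and RBL2, a pocket protein of the retinoblastoma family. The members were chosen by gene symbol in the platform annotation. Of 10 listed genes 9 had a probe set with that symbol, 1 each, among 17687 genes in all, and CDKN2C was not analysed here.

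ASC52 is a line of mesenchymal stem cells from human adipose tissue, immortalised with telomerase reverse transcriptase (ASC52htert), and the 3 groups had 5 arrays each. DED cells were differentiated to adipocytes for 14 days, starting 3 days after seeding, and the cells then grew for 7 days in conditioned medium from the human breast carcinoma line MDA-MB-231. MA cells had the same differentiation and then 7 days in control medium of RPMI with 10% FBS. The labels give 10% FBS for the DED cells too. MSC cells were not differentiated, and the labels give neither their day of harvest nor their medium then. All groups come from 1 immortalised line, and the labels do not call the arrays of a group separate cultures. The p-values thus cover spread between arrays that may be technical. Values are deposited log2 intensities, on which a difference of 1 is a doubling, and a gene passed the test at a limma adjusted p under 0.05 over all 17687 genes.

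D cyclins bind CDK4 and CDK6 when growth factors are present, and the kinases they form phosphorylate the pocket proteins RB1, RBL1 and RBL2. Phosphorylated pocket proteins release E2F factors, which switch on the genes of DNA replication. INK4 inhibitors (the CDKN2 genes) block CDK4 and CDK6, Cip/Kip inhibitors (the CDKN1 genes) block mainly CDK2 complexes, and RBL2 with E2F4 and the MuvB core forms the DREAM complex that represses cell cycle genes in resting cells. Leaving the cell cycle is a known step of fat cell formation, and CCND3 is also known to promote the activity of PPARG, the master regulator of that process.

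The adipocyte markers set DED and MA apart from MSC, while between DED and MA the marker lists split. The mean of 6 adipocyte markers ran from 10.55 to 12.22 in DED and from 13.18 to 13.37 in MA, against 5.16 to 5.36 in MSC, where 4 of the 6 had means under 4.80, the median of 612 negative control probe sets. In DED against MA, ADIPOQ, PLIN1, FABP4, CIDEC and CFD fell, while LEP was at 0.67 (SE 0.27, limma adjusted p = 0.078). The mesenchymal markers THY1, ENG and NT5E were above the 95th percentile of those controls (8.31) in every group. Their list mean was highest in MSC, at 13.34 to 13.55, against 12.47 to 12.98 in DED and 12.39 to 12.59 in MA. In MA against MSC, THY1 (-1.55) and ENG (-1.18) fell, while NT5E did not pass the test (-0.09). In DED against MSC, THY1 (-0.79), ENG (-0.44) and NT5E (-0.79) all fell. In DED against MA, THY1 rose by 0.76 (SE 0.14, adjusted p = 0.00031) and ENG by 0.74 (SE 0.11, adjusted p = 3.4e-05). There NT5E fell by 0.70 (SE 0.12, adjusted p = 0.00014). The 6 carcinoma epithelium markers had list means of 6.08 to 6.26 in DED, 6.02 to 6.09 in MA and 6.04 to 6.33 in MSC, with EPCAM, CDH1 and KRT18 under the negative control median in every group and no marker of the 6 passing the test in any comparison. No array here is of MDA-MB-231 cells, so how these markers read in that line was not measured, and carried-over cells were not tested for. Of 2 leukocyte markers PTPRC passed no test, while CD14, a monocyte receptor, averaged 6.91 ± 0.58 in DED, 5.51 ± 0.25 in MA and 5.51 ± 0.35 in MSC (SD, n = 5 each). CD14 rose by 1.40 in DED against MA (SE 0.23, adjusted p = 7.6e-05) and by 1.40 in DED against MSC (SE 0.23, adjusted p = 4.5e-05), with all arrays under 8.31, and its part in the differences of DED was not tested. Over genes, the lowest correlation between arrays of a group was 0.982 in DED, 0.992 in MA and 0.992 in MSC, and DED arrays 1 and 3 had the lowest array weights (0.515 and 0.489, against 0.826 to 1.72 for the other 13 arrays). In bulk RNA, fewer cells of a type and less RNA per cell cannot be told apart.

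With conditioned medium CCND2 and CCND3 moved in opposite directions. Against MA, DED cells had more CCND2 and CDKN1A and less CCND3 and CDKN2B. Of the 9 members 3 rose and 2 fell, where over all genes 12.9% rose and 13.0% fell. The falls became 4, with CDKN1C and CCND1 added, under quantile normalization, without dim genes, with array weights or without DED arrays 1 and 3, and the rise of CDKN1B was lost in several settings given with its values. The median log2 difference was -0.26, which is the value of CDKN2A, a gene at background, against 0.02 over all genes.

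Differentiation was accompanied by more CCND3, CDKN1A, CDKN2B and RBL2 and by less CCND2. Of the 9 members 4 rose and 1 fell in MA against MSC, where over all genes 15.4% rose and 17.6% fell. The median log2 difference was 0.27 for the members, which is the value of CDKN1C, a dim gene that did not pass the test, and 0.00 for all genes. In DED against MSC 6 members rose and 2 fell, where 17.1% of all genes rose and 16.4% fell, with medians of 0.59 and 0.03, and the falls became 1, without CDKN2A, in several settings. These comparisons share arrays pairwise, so their values are given side by side and are not independent of each other.

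**Figure D1:**
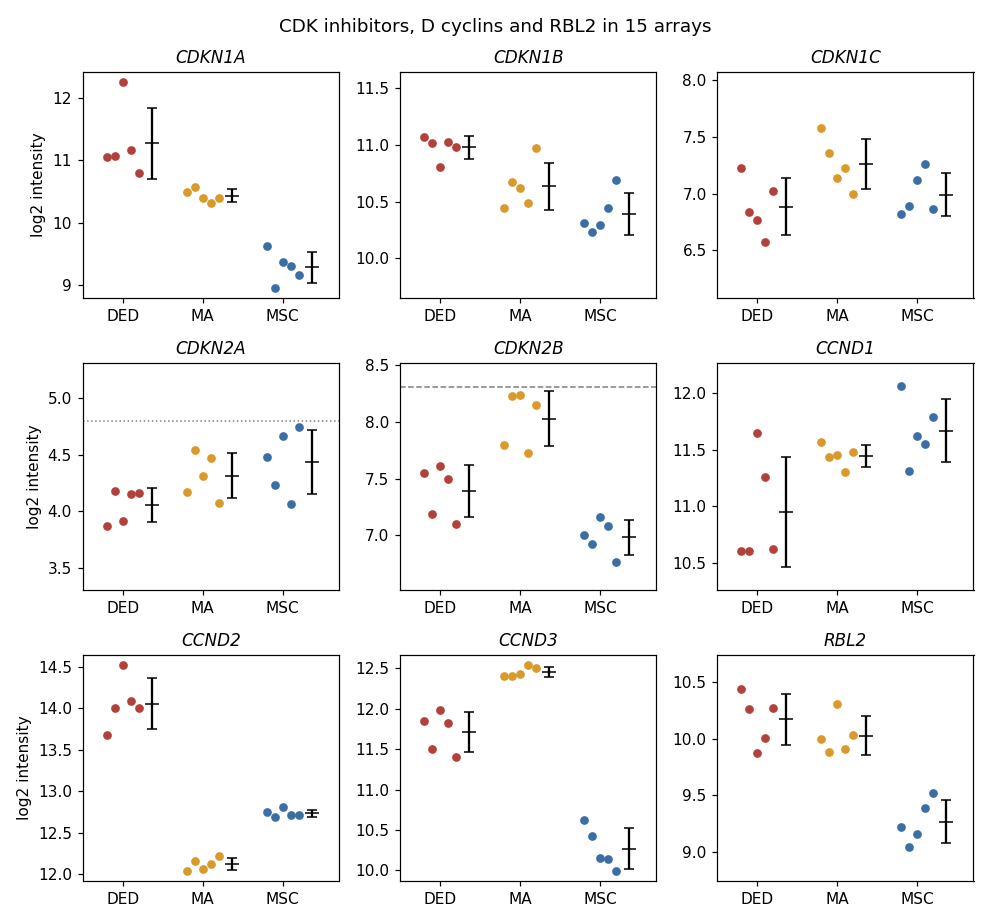
Log2 intensity (vertical axes, each panel on its own scale) of the 9 members in the 5 arrays of DED, MA and MSC, with the mean ± SD beside the points. The dotted line marks 4.80 and the dashed line 8.31, the median and 95th percentile of negative controls, shown where they fall in a panel. The groups of CDKN1A, CCND2 and CCND3 lie apart from each other, and all CDKN2A points lie under the dotted line.

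CDKN1A, the Cip/Kip inhibitor p21 and a classical p53 target, was highest in DED and lowest in MSC. Its log2 intensity was 11.05, 11.07, 12.25, 11.17 and 10.80 in DED arrays 1 to 5, 10.49, 10.57, 10.39, 10.31 and 10.40 in MA, and 9.62, 8.95, 9.37, 9.31 and 9.16 in MSC. No array of 1 group reached the range of another, and DED array 3 stood above the other DED arrays. CDKN1A was 1.79-fold higher in DED than in MA (log2 difference 0.84, SE 0.20, limma adjusted p = 0.0033). Without DED array 3 the log2 difference was 0.59 (adjusted p = 0.0019). It was 2.22-fold higher in MA than in MSC (1.15, SE 0.20, adjusted p = 0.00011) and 3.96-fold higher in DED than in MSC (1.99, SE 0.20, adjusted p = 8.7e-08).

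CDKN1B, the inhibitor p27 that holds resting cells in G1 and is controlled largely through protein breakdown, moved little. DED arrays 1 to 5 had 11.07, 11.02, 10.81, 11.03 and 10.98, MA arrays 10.44, 10.67, 10.62, 10.49 and 10.97, and MSC arrays 10.31, 10.23, 10.29, 10.44 and 10.69. The MA range touched both others, while the DED and MSC ranges did not meet. CDKN1B rose in DED against MSC by 0.59 (SE 0.12, adjusted p = 0.00051) and in DED against MA by 0.34 (SE 0.12, adjusted p = 0.038). The call against MA was lost without DED array 1, 2, 4 or 5 and without MA array 1, 2, 3 or 4 (adjusted p up to 0.10). MA averaged 10.64 ± 0.21 and MSC 10.39 ± 0.18 (SD, n = 5 each; adjusted p = 0.13; 0.049 without MSC array 5).

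CDKN1C, the imprinted inhibitor p57, was within the range of dim probe sets. It averaged 6.89 ± 0.25 in DED, 7.26 ± 0.22 in MA and 6.99 ± 0.19 in MSC (SD, n = 5 each), all under 8.31. The 3 groups overlapped, and no comparison passed the test. The log2 difference was -0.38 in DED against MA (95% interval -0.67 to -0.09, adjusted p = 0.053), which passed with DED array 1 left out (adjusted p = 0.016) or MA array 5 left out (0.031).

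Among the INK4 genes, CDKN2A was at background in all groups. This locus encodes p16 and, from another reading frame, ARF, which its 1 probe set cannot tell apart. It read 3.87, 4.18, 3.91, 4.15 and 4.16 in DED, 4.17, 4.54, 4.31, 4.47 and 4.07 in MA and 4.48, 4.23, 4.66, 4.06 and 4.74 in MSC. Every array was under the negative control median of 4.80, so a difference here is one between background readings. The difference of -0.38 in DED against MSC (SE 0.14, adjusted p = 0.039) was called, and the call was lost without any 1 of 5 arrays, namely DED arrays 1 and 3 and MSC arrays 1, 3 and 5 (adjusted p up to 0.12), and in a fit blocked on replicate number (adjusted p = 0.067).

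CDKN2B, the neighbouring gene of p15, known as a TGF-beta target, was highest in MA. It had 7.55, 7.19, 7.61, 7.50 and 7.10 in DED, 7.80, 8.23, 8.24, 7.73 and 8.15 in MA and 7.00, 6.92, 7.16, 7.08 and 6.76 in MSC. The MA arrays lay above all others, while the DED and MSC ranges overlapped, and all arrays were under 8.31, so the sizes depend on background. CDKN2B rose by 1.05 in MA against MSC (SE 0.14, adjusted p = 3.1e-06) and fell by 0.64 in DED against MA (SE 0.14, adjusted p = 0.0012). In DED against MSC it was higher by 0.41 (SE 0.14, adjusted p = 0.025). That call was lost without DED array 1, 3 or 4 and without MSC array 2 or 5 (adjusted p up to 0.072).

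The D cyclins each had their own pattern. CCND1, the cyclin most directly tied to growth factor signals, had 10.60, 10.60, 11.65, 11.26 and 10.62 in DED, 11.57, 11.43, 11.45, 11.30 and 11.48 in MA, and 12.06, 11.31, 11.62, 11.55 and 11.79 in MSC. DED arrays 1, 2, 4 and 5 were under every other array, and DED array 3 was within the MSC range. CCND1 fell by 0.72 in DED against MSC (SE 0.18, adjusted p = 0.0041). Against MA the difference was -0.50 (95% interval -0.88 to -0.12, adjusted p = 0.052), which passed with DED array 3 or DED array 4 left out, at -0.68 (adjusted p = 0.0029) and -0.58 (adjusted p = 0.036). MA averaged 11.45 ± 0.10 and MSC 11.67 ± 0.28 (SD, n = 5 each), a difference of -0.22 (95% interval -0.60 to 0.16, adjusted p = 0.41).

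CCND2, a D cyclin with the same kinase partners, had 13.68, 14.00, 14.52, 14.09 and 14.00 in DED, 12.04, 12.16, 12.06, 12.13 and 12.22 in MA, and 12.75, 12.69, 12.81, 12.71 and 12.71 in MSC. The 3 groups did not overlap, with DED on top and MA at the bottom. It was 3.83-fold higher in DED than in MA (log2 difference 1.94, SE 0.12, adjusted p = 3.1e-10) and 2.50-fold higher in DED than in MSC (1.32, SE 0.12, adjusted p = 2.8e-08). It fell by 0.61 in MA against MSC (SE 0.12, adjusted p = 0.00050).

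CCND3, the D cyclin linked to PPARG activity, had 11.85, 11.50, 11.99, 11.83 and 11.40 in DED, 12.41, 12.41, 12.43, 12.54 and 12.51 in MA, and 10.62, 10.43, 10.15, 10.14 and 9.99 in MSC. Here MA was on top, DED lay between, and no ranges met. CCND3 was 4.58-fold higher in MA than in MSC (log2 difference 2.19, SE 0.13, adjusted p = 6.0e-11). It fell by 0.75 in DED against MA (SE 0.13, adjusted p = 0.00024) and remained 2.73-fold higher in DED than in MSC (1.45, SE 0.13, adjusted p = 2.6e-08).

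RBL2, the pocket protein p130 of resting cells, had 10.44, 10.26, 9.87, 10.01 and 10.27 in DED, 10.00, 9.88, 10.31, 9.91 and 10.03 in MA, and 9.22, 9.04, 9.16, 9.39 and 9.52 in MSC. The DED and MA arrays were intermixed, and all were above MSC. RBL2 was 1.69-fold higher in MA than in MSC (0.76, SE 0.13, adjusted p = 8.5e-05) and 1.87-fold higher in DED than in MSC (0.90, SE 0.13, adjusted p = 1.0e-05). Between DED and MA the difference was 0.14 (95% interval -0.13 to 0.41, adjusted p = 0.48).

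**Figure D2:**
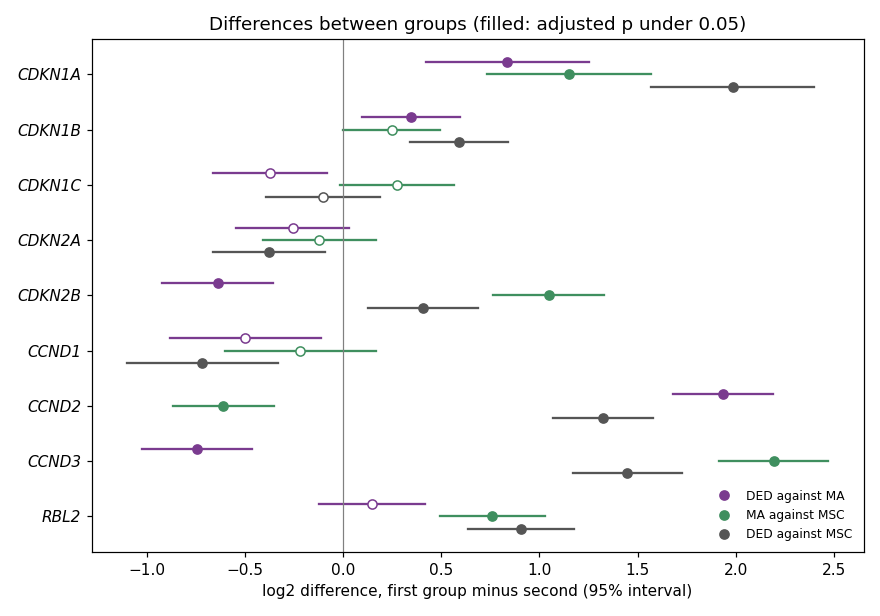
Log2 difference (horizontal axis, first group minus second, with the 95% interval of the limma fit) of each member in the 3 comparisons, filled where the adjusted p is under 0.05. CCND2 is at 1.94 in DED against MA and at -0.61 in MA against MSC, and CCND3 is at -0.75 and 2.19.

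The other members of these families ran differently. RBL1 (p107), the pocket protein of cycling cells, averaged 7.91 ± 0.25 in DED, 8.51 ± 0.12 in MA and 9.22 ± 0.08 in MSC (SD, n = 5 each). It fell by 0.60 in DED against MA (SE 0.12, adjusted p = 0.00061), by 0.71 in MA against MSC (SE 0.12, adjusted p = 6.7e-05) and by 1.32 in DED against MSC (SE 0.12, adjusted p = 1.8e-08), so RBL1 and RBL2 had opposite signs against MSC. RB1 averaged 8.70 ± 0.18 in DED, 8.21 ± 0.25 in MA and 8.81 ± 0.13 in MSC, and it rose in DED against MA by 0.49 (SE 0.13, adjusted p = 0.0057) and fell in MA against MSC by 0.60 (SE 0.13, adjusted p = 0.00078). The DED mean of RBL1 and the MA mean of RB1 were under 8.31, so the sizes of their differences with those groups depend on background. CDKN2D, the INK4 inhibitor p19, was dim in all groups (6.60 ± 0.19 in DED, 6.96 ± 0.22 in MA and 6.73 ± 0.11 in MSC) and fell by 0.36 in DED against MA (SE 0.12, adjusted p = 0.033). That call was lost without DED array 3, 4 or 5, without MA array 1, 2 or 4, with the intensity trend and with only those groups fitted (adjusted p up to 0.098).

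The kinases that these inhibitors and cyclins act on moved apart from each other. CDK2, the partner of cyclins E and A, averaged 6.68 ± 0.08 in DED, 8.06 ± 0.28 in MA and 9.13 ± 0.31 in MSC (SD, n = 5 each). It fell by 1.38 in DED against MA (SE 0.15, adjusted p = 4.8e-07) and by 1.07 in MA against MSC (SE 0.15, adjusted p = 7.9e-06). Its DED and MA means were under 8.31, so these sizes depend on background. CDK4 was 13.99 ± 0.23 in DED, 13.50 ± 0.11 in MA and 14.07 ± 0.06 in MSC; it rose by 0.48 in DED against MA (SE 0.11, adjusted p = 0.0027) and fell by 0.57 in MA against MSC (SE 0.11, adjusted p = 0.00042). Of 9 G1 kinases, E cyclins and their activators 3 rose and 3 fell in DED against MA, none rose and 3 fell in MA against MSC, and 2 rose and 5 fell in DED against MSC. Over all genes 12.9% rose and 13.0% fell in DED against MA, 15.4% and 17.6% in MA against MSC, and 17.1% and 16.4% in DED against MSC. The list is too short to set its counts of 3 or fewer against those shares. MNAT1, a subunit of the CDK-activating kinase, rose by 0.66 in DED against MA (SE 0.11, adjusted p = 8.3e-05), and CCNE2 (cyclin E2), whose DED mean of 4.67 was under the negative control median, fell by 1.12 (SE 0.22, adjusted p = 0.00063).

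Genes of the later phases were lower in MA than in MSC, and nearly all were lower in DED than in MA. Of 14 S, G2 and M phase genes 13 fell in DED against MA, 14 in MA against MSC and 14 in DED against MSC, and none rose. Over all genes 13.0%, 17.6% and 16.4% fell in that order of comparisons. The median log2 difference of the 14 genes was -1.25, -1.65 and -2.46 in the same order, against 0.02, 0.00 and 0.03 over all genes. The list mean ran from 6.87 to 7.41 in DED, from 8.60 to 8.90 in MA and from 10.29 to 10.50 in MSC, and DED array 3, with the highest CDKN1A, had the lowest list mean. The other DED arrays did not keep this order. Array 5, with the lowest CDKN1A of DED (10.80), had a list mean of 7.07, under arrays 1 (7.41) and 2 (7.32). CCNB1 (cyclin B1), which drives entry into mitosis, was 6.73 ± 0.34 in DED, 9.52 ± 0.15 in MA and 12.11 ± 0.17 in MSC. The exception in DED against MA was MCM6, a subunit of the replicative helicase, at -0.36 (SE 0.14, adjusted p = 0.072). Many of these genes were under 8.31 in DED, so the sizes of their falls depend on background.

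**Figure D3:**
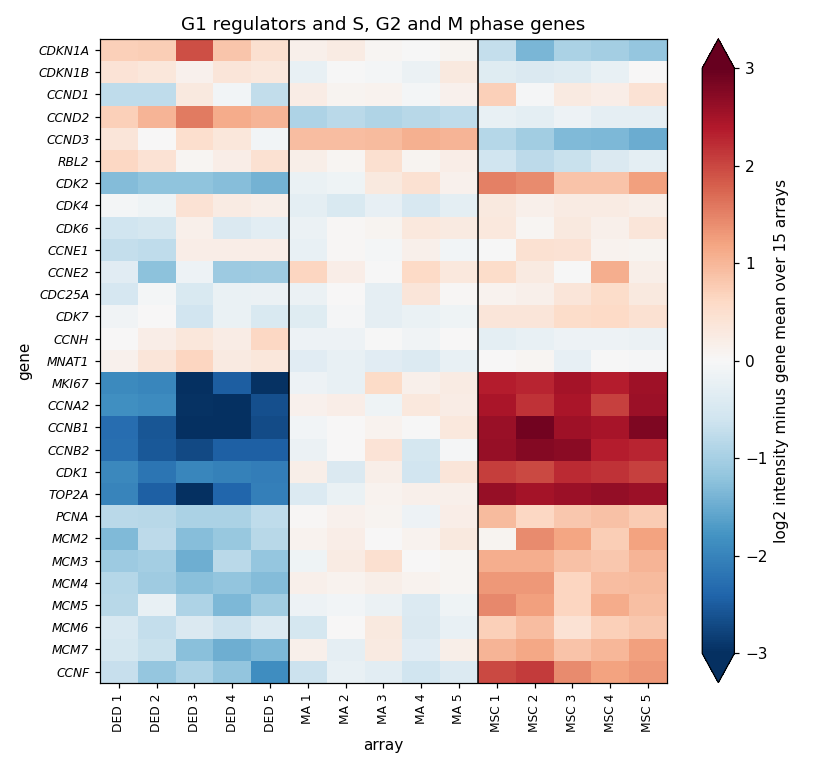
Log2 intensity minus each gene's mean over the 15 arrays (colour, scale from -3 to 3) for 6 members, 9 G1 kinases and E cyclins with their activators, and 14 S, G2 and M phase genes (rows) in the DED, MA and MSC arrays (columns). The later genes are low in DED, intermediate in MA and high in MSC, while CDKN1A runs the other way and CCND2 and CCND3 are high in different groups.

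Transcription factors under the pocket proteins fell in part. Of 10 E2F and DP factors 1 rose and 4 fell in DED against MA, where 12.9% of all genes rose and 13.0% fell. In MA against MSC 1 rose and 5 fell, where 15.4% of all genes rose and 17.6% fell. Among the falls in DED against MA, E2F1 had both means under the negative control median (3.86 in DED and 4.40 in MA). E2F8 had its DED mean under it (4.34), so the falls of E2F1 and E2F8 depend on background readings. E2F7 and E2F8, repressors made in S phase, fell in MA against MSC, with log2 differences of -3.06 (SE 0.21, adjusted p = 3.7e-10) and -2.05 (SE 0.21, adjusted p = 1.7e-07). E2F5, which binds RBL2 and acts in resting cells, had 7.69, 8.46, 10.14, 9.12 and 9.34 in DED, 7.10, 6.17, 6.99, 6.74 and 6.55 in MA and 8.08, 8.09, 8.35, 8.15 and 8.24 in MSC. It rose by 2.24 in DED against MA (SE 0.30, adjusted p = 9.1e-06), with a wide range among the DED arrays. Of 8 genes of the DREAM complex and of the MuvB partners that activate mitotic genes none rose, while 3 fell in DED against MA and 4 in MA against MSC. Over all genes 13.0% and 17.6% fell in these comparisons. FOXM1, the activator of mitotic genes, averaged 5.39 ± 0.42 in DED, 7.99 ± 0.19 in MA and 10.92 ± 0.22 in MSC, and the MuvB subunit LIN9 fell by 1.81 in MA against MSC (SE 0.15, adjusted p = 9.6e-09). The means of E2F8 and LIN9 were under 8.31 in all groups, those of E2F7 and FOXM1 in DED and MA, and that of E2F5 in MA and MSC. The sizes of these differences thus depend on background.

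Genes that set the protein levels of the inhibitors moved in part. Of 13 genes for the turnover of CDK inhibitors and D cyclins none rose and 7 fell in DED against MA. Over all genes 12.9% rose and 13.0% fell there. In MA against MSC 3 rose and 2 fell, where 15.4% of all genes rose and 17.6% fell. Those MA against MSC counts are near the shares and are no result about the list. DTL, the adaptor that sends p21 for destruction in S phase, was 6.97 ± 0.16 in DED, 9.06 ± 0.15 in MA and 10.96 ± 0.24 in MSC. CKS1B, the cofactor for the destruction of p27, was 11.72 ± 0.35 in DED, 12.76 ± 0.15 in MA and 13.56 ± 0.11 in MSC. Both fell in these 2 comparisons, DTL by 2.08 in DED against MA (SE 0.13, adjusted p = 1.5e-10) and by 1.90 in MA against MSC (SE 0.13, adjusted p = 1.9e-10). CKS1B fell by 1.04 (SE 0.14, adjusted p = 1.0e-05) and 0.80 (SE 0.14, adjusted p = 0.00013) in the same order. The DED mean of DTL was under 8.31, so the size of its fall against MA depends on background. AMBRA1, which directs D cyclins to destruction, rose by 0.67 in MA against MSC (SE 0.13, adjusted p = 0.00045). Its MSC mean was 8.14, under 8.31, so the size of this rise depends on background. Protein levels were not measured.

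Other targets of p53 were compared with CDKN1A. Of 23 listed genes 19 were measured. In DED against MA 8 rose and 2 fell, with a median log2 difference of 0.41, and in MA against MSC 4 rose and 4 fell, with a median of -0.16. Over all genes 12.9% rose and 13.0% fell in DED against MA, and 15.4% rose and 17.6% fell in MA against MSC. The falls in DED against MA and both counts in MA against MSC are near those shares. MDM2, the ubiquitin ligase of p53, had 10.54, 10.64, 11.71, 10.73 and 10.42 in DED, 8.99, 9.17, 8.98, 9.11 and 9.42 in MA and 9.59, 9.08, 9.05, 9.22 and 9.51 in MSC. Its DED arrays were above all others, and array 3 was again the highest. MDM2 rose by 1.67 in DED against MA (SE 0.19, adjusted p = 1.2e-06), while in MA against MSC, where CDKN1A rose, it was at -0.16 (SE 0.19, adjusted p = 0.60).

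Individual targets did not follow 1 pattern. SESN2, a stress sensor that is also a known ATF4 target, rose by 2.21 in DED against MA (SE 0.19, adjusted p = 2.5e-08) and fell by 1.55 in MA against MSC (SE 0.19, adjusted p = 1.7e-06). CCNG1 (cyclin G1) went the opposite way, at -0.52 (SE 0.11, adjusted p = 0.0011) and 1.38 (SE 0.11, adjusted p = 3.3e-09), and SESN1 likewise, at -0.67 (SE 0.14, adjusted p = 0.0013) and 1.14 (SE 0.14, adjusted p = 1.8e-06). The mean of SESN1 was under 8.31 in all groups and that of SESN2 in MA (7.71), so the sizes of their differences depend on background. The mean of the 19 genes was 10.12 in DED array 3, 9.71 to 9.79 in the other DED arrays, 9.29 to 9.40 in MA and 9.37 to 9.43 in MSC. Without DED array 3, 9 of the 19 genes rose and 2 fell in DED against MA, with MDM2 at 1.45 (adjusted p = 1.1e-07) and SESN2 also past the test (adjusted p = 3.4e-09).

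**Figure D4:**
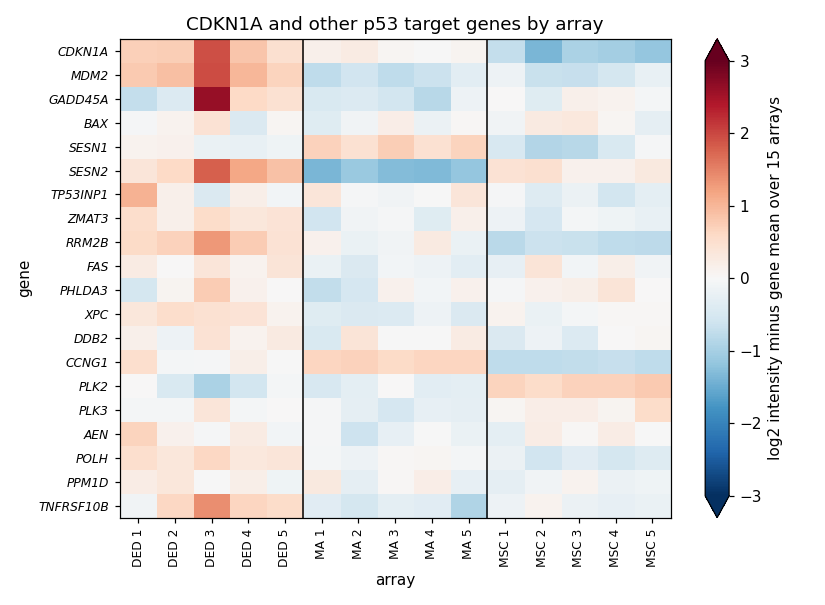
Log2 intensity minus each gene's mean over the 15 arrays (colour, scale from -3 to 3) for CDKN1A and 19 further p53 target genes (rows) in the DED, MA and MSC arrays (columns). MDM2 and SESN2 share the high values of CDKN1A in DED, array 3 most, while CCNG1 and SESN1 are highest in MA and PLK2 in MSC.

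FOXO factors, which insulin signalling keeps out of the nucleus, are known activators of CDKN1B and RBL2. Of 10 FOXO factors and target genes 8 rose and 1 fell in MA against MSC, with a median log2 difference of 1.74. Over all genes 15.4% rose and 17.6% fell there. FOXO1 was 10.74 ± 0.31 in DED, 10.80 ± 0.11 in MA and 3.90 ± 0.76 in MSC, the last under the negative control median. In DED against MA 2 of the 10 rose and 4 fell, where 12.9% of all genes rose and 13.0% fell. CCNG2 (cyclin G2), a FOXO target of resting cells, rose by 1.47 in MA against MSC (SE 0.13, adjusted p = 1.0e-08) and fell by 1.47 in DED against MA (SE 0.13, adjusted p = 2.4e-08). BCL6, a repressor of D cyclin genes in lymphocytes, rose by 1.44 in DED against MA (SE 0.14, adjusted p = 1.0e-07).

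Upstream of CDKN2B, 11 of 12 listed genes of the TGF-beta pathway were measured, of which 2 rose and 4 fell in MA against MSC and 1 rose and 1 fell in DED against MA. Over all genes 15.4% rose and 17.6% fell in MA against MSC. The count in DED against MA is under the 12.9% and 13.0% of all genes, and is no result about the pathway. SMAD3, a signal carrier from the receptor to the CDKN2B promoter, was 8.98 ± 0.36 in DED, 10.25 ± 0.07 in MA and 8.35 ± 0.31 in MSC. It rose by 1.90 in MA against MSC (SE 0.16, adjusted p = 8.5e-09) and fell by 1.26 in DED against MA (SE 0.16, adjusted p = 4.5e-06), the same signs as CDKN2B. TGFBR1, the type I receptor, rose by 2.25 in DED against MA (SE 0.13, adjusted p = 9.1e-11), and TGFB3, a ligand, fell by 2.62 in MA against MSC (SE 0.17, adjusted p = 1.3e-10). The MA mean of TGFB3 was 6.59, under 8.31, so the size of its fall depends on background. EZH2, the Polycomb enzyme that represses the INK4 locus, averaged 8.58 ± 0.23 in DED, 9.23 ± 0.43 in MA and 11.66 ± 0.17 in MSC and fell by 2.43 in MA against MSC (SE 0.17, adjusted p = 4.7e-10). Only 5 of 9 listed Polycomb genes were measured, and 1 rose and 1 fell in DED against MA, too few to set against the shares over all genes.

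Of 10 mitogen inputs to the D cyclins 4 rose and 2 fell in MA against MSC, and 2 rose and 2 fell in DED against MA, where the shares over all genes were 15.4% and 17.6% in MA against MSC and 12.9% and 13.0% in DED against MA. Apart from the rises in MA against MSC, these counts are within 1 gene of those shares. JUN, an AP-1 subunit that activates CCND1, was 7.13 ± 0.26 in DED, 8.38 ± 0.22 in MA and 10.16 ± 0.23 in MSC. It fell by 1.25 in DED against MA (SE 0.14, adjusted p = 1.3e-06) and by 1.79 in MA against MSC (SE 0.14, adjusted p = 4.2e-09). The DED mean of JUN was under 8.31, so the size of its fall against MA depends on background. ETS1 and STAT3, factors downstream of growth factor and cytokine receptors, rose in DED against MA by 1.39 (SE 0.12, adjusted p = 1.6e-08) and 1.08 (SE 0.13, adjusted p = 1.6e-06). MYC, a driver of cell growth, averaged 10.65 ± 0.46 in DED, 10.77 ± 0.21 in MA and 10.62 ± 0.22 in MSC and passed no test.

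Of 5 listed senescence markers 3 were measured, and LMNB1, HMGB1 and HMGB2 fell in each of the 3 comparisons. Over all genes 13.0% fell in DED against MA, 17.6% in MA against MSC and 16.4% in DED against MSC, and the list is short. LMNB1 (lamin B1), whose loss is a known sign of senescence and which is also lower in cells that do not divide, averaged 4.48 ± 0.27 in DED, under the negative control median, 5.62 ± 0.44 in MA and 6.80 ± 0.23 in MSC. HMGB1 fell by 0.83 in DED against MA (SE 0.12, adjusted p = 2.5e-05) and by 1.08 in MA against MSC (SE 0.12, adjusted p = 4.5e-07). CDKN2A, the other usual marker, was at background as given above.

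**Figure D5:**
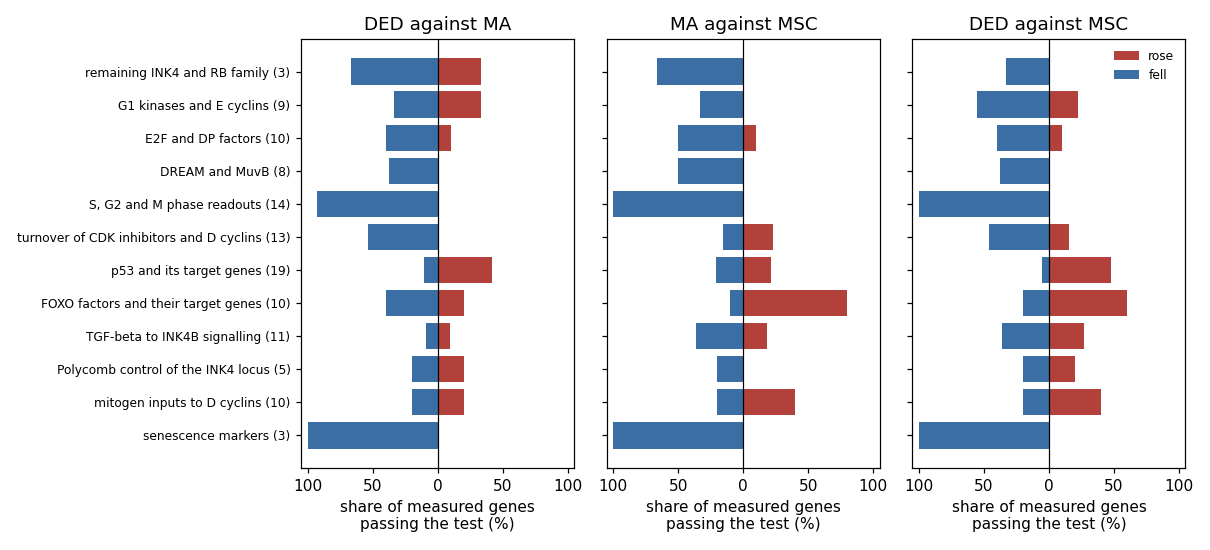
Share of the measured genes of each pathway list (number in brackets) that passed the test, to the right of 0 where they rose and to the left where they fell, in the 3 comparisons. The S, G2 and M phase list fell in all 3 comparisons (13, 14 and 14 of 14 genes), and the FOXO list rose most in MA against MSC (8 of 10 genes). Over all genes 13.0% fell in DED against MA, 17.6% in MA against MSC and 16.4% in DED against MSC, and 15.4% rose in MA against MSC.

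Some genes followed a member closely over the 15 arrays. Pearson's r, which here mostly reflects the differences between the 3 groups, was highest for CCND3 with DUSP4 (0.990), TIMP4 (0.982) and SIK2 (0.978). For CCND2 the nearest genes were GPR176 (0.987), ROR2 (0.986) and SCG5 (0.983). For CDKN1A they were ITPR1 (0.968), INAFM2 (0.962) and TXNRD1 (0.961), for RBL2 PLSCR4 (0.960), GAB1 (0.960) and MAN1C1 (0.955), and for CDKN2B TCEA3 (0.959), SCARB2 (0.936) and NR1H3 (0.935). The nearest genes of the members with weaker patterns had lower values, CSTA with CDKN1B at 0.917, TSR3 with CCND1 at 0.891, D2HGDH with CDKN1C at 0.889 and ACAP3 with CDKN2A at 0.827.

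The promoters of CDKN1A, CDKN2B, CCND3 and RBL2 are shown because these 4 genes rose together in MA against MSC. The windows of RefSeq on GRCh38.p14 run from 250 bases before to 50 bases after a start site, at chr6:36678464-36678763 (plus strand) for CDKN1A, chr9:22009256-22009555 (minus strand) for CDKN2B, chr6:42048639-42048938 (minus strand) for CCND3 and chr16:53434221-53434520 (plus strand) for RBL2. CCND3 has 3 windows in the table and RBL2 has 2, and the one nearest to the start of the gene is printed, 5′ to 3′ on the strand of the gene. The probe sets do not tell which start site was used. Capitals mark matches to the motifs given after the sequences.
CDKN1A: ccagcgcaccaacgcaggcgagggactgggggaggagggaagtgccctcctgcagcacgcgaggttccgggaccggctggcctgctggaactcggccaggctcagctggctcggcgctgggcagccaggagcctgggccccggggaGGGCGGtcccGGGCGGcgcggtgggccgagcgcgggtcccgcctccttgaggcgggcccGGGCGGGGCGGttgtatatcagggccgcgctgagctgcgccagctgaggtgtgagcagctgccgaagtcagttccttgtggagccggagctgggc
CDKN2B: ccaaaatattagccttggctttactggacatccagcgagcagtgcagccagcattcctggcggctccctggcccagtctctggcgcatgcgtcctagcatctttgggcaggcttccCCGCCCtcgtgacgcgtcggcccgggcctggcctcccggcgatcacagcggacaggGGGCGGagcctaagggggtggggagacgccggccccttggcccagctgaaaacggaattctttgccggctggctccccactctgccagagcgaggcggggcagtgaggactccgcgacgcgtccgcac
CCND3: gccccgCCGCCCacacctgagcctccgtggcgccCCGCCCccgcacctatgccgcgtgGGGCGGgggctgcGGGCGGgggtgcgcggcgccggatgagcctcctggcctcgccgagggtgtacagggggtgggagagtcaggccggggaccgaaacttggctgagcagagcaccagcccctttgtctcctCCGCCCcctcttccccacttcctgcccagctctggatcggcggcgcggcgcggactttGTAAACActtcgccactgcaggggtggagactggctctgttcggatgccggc
RBL2: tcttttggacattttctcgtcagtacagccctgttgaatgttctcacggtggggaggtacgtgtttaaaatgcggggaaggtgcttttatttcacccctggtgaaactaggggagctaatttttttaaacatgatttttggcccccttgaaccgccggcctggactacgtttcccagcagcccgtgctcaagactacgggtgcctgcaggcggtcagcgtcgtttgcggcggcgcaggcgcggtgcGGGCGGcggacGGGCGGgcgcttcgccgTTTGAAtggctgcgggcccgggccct

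Motifs were searched as plain letters on both strands: the GC box GGGCGG bound by SP1, the cell cycle element CHR (TTTGAA), the E2F forms TTTGGCGC, TTTCGCGC and TTTCCCGC, FOXO (TGTTTAC), AP-1 (TGACTCA), SMAD (GTCTAGAC) and the E-box CACGTG. All 4 windows held GC boxes, 4 in CDKN1A, 2 in CDKN2B, 5 in CCND3 and 2 in RBL2, and 44.9% of 34943 RefSeq windows hold at least 1. In CDKN1A the GC boxes that begin at -45 and -40 from the start site overlap by 1 base. CCND3 held the FOXO letters at -2, which 3.42% of windows hold, and RBL2 the CHR letters at 25 after the start, which 15.2% hold. The windows of CCND3 and RBL2 that are not printed held neither the FOXO nor the CHR letters. None of the 4 printed windows held the E2F, AP-1, SMAD or E-box letters, which occur in 2.72%, 4.96%, 0.203% and 7.23% of windows. A match is a run of letters, not a bound site.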

How the data were processed

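The authors deposited log2 intensity values, 1 per probe set and array, and the submitters' processing notes name Transcriptome Analysis Console and RMA as their source. RMA scales arrays to each other, which hides any change common to every gene. The sources used here give no software version and no genome build. Of 24351 probe sets 17709 carried 1 gene symbol, and for the 20 genes with several the probe set with the highest mean was kept (17687 genes). Dim probe sets were kept.

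Groups came from the sample titles. Comparisons were two-sided moderated tests of group means over the 15 arrays together, run with limma 3.58.1 (R 4.3.3), on all 17687 genes, with p-values adjusted over all of them by Benjamini-Hochberg, and simulated data with known changes were used to check the fit. The number of arrays limits the precision. Values are means ± SD over 5 arrays, and SEs and intervals are those of the moderated fit. The 9 members are all named, and of 12 pathway lists (125 genes, 114 measured) up to 2 rises and 2 falls per list and comparison were eligible, while MCM6, MYC, HMGB2, E2F1 and the MA against MSC values of CDK4, MDM2 and CCNG2 were picked after their values were seen. The members and lists were chosen with earlier results of these data known. Sequences are from RefSeq (GRCh38.p14), and 6 of the 9 members had a promoter window. The alternatives were other normalizations, filters, moderation and weights, fits of only the groups compared, a replicate block, and each array left out. Leaving out DED arrays 1 and 3 together was chosen after seeing the data. Plots used matplotlib 3.10.9 under Python 3.11.15.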

Additional observations from a re-analysis of the deposited data

Results flagged for a closer look

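In 11 of 189 groups of 5 arrays, 1 array lay apart from the other 4, with a gap to its neighbour past Dixon's critical share of the range, which chance gives in about 1 of 20 groups. Among the 27 groups of the members this was so only for CDKN1A in DED, where array 3 had 12.25 and the others 10.80 to 11.17. The same array was highest for MDM2, at 11.71 against 10.42 to 10.73, and lowest for TOP2A, at 5.90 against 7.30 to 7.77. DED array 1 was high for TFDP1 (9.95, others 9.49 to 9.59) and for E2F7 (8.16, others 6.69 to 6.79), and DED array 5 was low for CUL4B (7.91, others 8.41 to 8.51). In MA, array 5 was high for KLF15 at 9.07, with the others at 8.51 to 8.66. In MSC, array 1 was high for RBL1 (9.36) and E2F7 (10.55), and array 4 for CCNG1 (11.45) and TGFBR1 (8.74). What sets these arrays apart was not tested.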

How the results depend on the processing

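Of 27 differences of members, 21 kept their sign and their side of the threshold in every alternative run, and none of the 501 recomputed values changed sign. The count of members lower in DED against MA was 2 and became 4, with CDKN1C and CCND1 added, under quantile normalization, without dim genes, with array weights and without DED arrays 1 and 3; leaving out 1 array gave 2 to 3. The count lower in DED against MSC was 2 and became 1, without CDKN2A, with dim genes left out (CDKN2A is then not tested), with array weights, with only the groups compared, with the replicate block and without DED arrays 1 and 3, and was 1 to 2 with 1 array left out. CDKN1B in DED against MA missed the threshold under quantile normalization (adjusted p = 0.068), with only the groups compared (0.052) and without DED arrays 1 and 3 (0.056), and CDKN2B in DED against MSC without those arrays (0.18). CCND1 in DED against MA passed with the intensity trend (0.035). The cause of these changes was not tested.

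Arrays with the same number in their titles did not deviate together from their group means (r from -0.03 to 0.05 in DED with MA, -0.05 to 0.09 in MA with MSC and -0.11 to 0.01 in DED with MSC), so the numbers were not taken as pairs. Under the replicate block 5, 5 and 7 members passed in DED against MA, MA against MSC and DED against MSC, against 5, 5 and 8 without it, and 4440, 5663 and 5738 of all genes, against 4587, 5844 and 5914. Of 72 list counts 8 moved by over 1.5 times in some alternative, each of them 3 genes or fewer. In DED against MA, RB and INK4 genes lower were 2 and became 1 (without CDKN2D), DREAM genes lower were 3 and became 1, and E2F genes higher were 1 and became 2. In DED against MSC, E2F genes higher were 1 and became 2, DREAM genes higher 0 and became 1, FOXO genes lower and turnover genes higher each 2 and became 1. In MA against MSC, FOXO genes lower were 1 and became 0. Probe sets near the negative controls (CDKN1C, CDKN2A and CDKN2B among the members) limit what differences can be read.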
